A study of Mus musculus with 12 samples.

Results

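The genes described here are the Wnt ligands, their Frizzled receptors, the secreted antagonists of the Dkk, Wif1 and Sfrp families, and the intracellular genes Axin1, Axin2 and Lef1. They were picked out by gene name, with the brightest probe of each gene on the array, which gave 41 members of 29742 genes with a named probe. By role these were 19 Wnt ligands, 10 Frizzled receptors, 5 genes of the Dkk and Wif1 group, 4 Sfrp genes, and Axin1, Axin2 and Lef1. All 41 were among the 29496 genes tested.

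RNA came from mammary tumours of female mice of 6 transgenic strains, harvested from animals that had borne tumours for 6 weeks. All strains carry neu, the rat form of Erbb2, under the MMTV promoter, which is active in mammary epithelium and also in salivary gland. YB, YC, YD and YE express the activated neu NDL receptor in which a single tyrosine phosphorylation site is present. NYPD expresses the receptor without these sites, and NDL25 is the parental strain NDL2-5 with the sites intact. The altered receptors are described here from the published work on this receptor series, since the labels give the strain names alone. The mice's age and genetic background are not given in the sources used here. Each strain had 10 tumours, and RNA of 5 tumours was combined into each of 2 pools, so the spread between single tumours is not visible and n = 2 pools per strain throughout. Each of the 12 pools was hybridised against Universal Mouse Reference RNA, which pools RNA of a panel of mouse cell lines, on a pair of Agilent arrays with exchanged dyes. A level is given as the log2 ratio of tumour over reference, the mean of the pair. The labels do not say which dye the tumour RNA carried, so its direction was read from luminal and milk protein genes.

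Wnt ligands are secreted lipid-modified proteins that bind Frizzled receptors together with the co-receptors Lrp5 and Lrp6. Binding stops the Axin-containing destruction complex from degrading beta-catenin, which then enters the nucleus and activates genes with the Tcf and Lef factors, Axin2 among them. Sfrp proteins and Wif1 bind the ligands themselves, and Dkk proteins bind the co-receptors. In the mammary gland Wnt4 is known as a mediator of progesterone-driven branching, Lef1 and Wnt10a are genes of the embryonic mammary bud, and Wnt1 was found as a mammary oncogene activated by MMTV insertion.

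The arrays were even in the share of spots above background, but not in every measure. The median tumour channel signal of the negative control spots ran from 48.5 to 110 units. With tumour RNA in Cy3 it was 102 and 109 on the NYPD arrays, against 60.4 to 81.2 on those of the other strains. Saturated tumour spots numbered 58 to 360 on an array. The median tumour signal of an array lay between 364.8 and 763.5 intensity units over a median local background of 39 to 64, and 97.3% to 98.9% of spots were well above background. Luminal epithelial markers had list medians of 1.40 to 1.75 in the 12 pools, as log2 ratios, above the reference in all of them. As the dye direction was itself read from luminal and milk protein genes, this sign is no independent check. Of the 41 members, 40 exceeded the 95th percentile of the 314 negative control spots on all 24 arrays, and Wnt5a did so on 23. The mean tumour signal of 7 members (Wnt3, Wnt5a, Wnt7a, Wnt8a, Wnt16, Dkk2 and Dkk4) was under 3 times the negative control median, and for these a ratio near 0 shows little. No member had a saturated or marked spot. Erbb2, the gene of the transgene, read 1.85 in YB pool 1 and 1.64 in NDL25 pool 1 on its brightest probe, against 3.42 to 4.19 in the other 10 pools, while its other 2 probes showed no such gap. The files place the feature extraction of the scanned images in 3 sessions. NYPD formed one by itself, YB, NDL25 and YC pool 1 another, and YD, YE and YC pool 2 the last, except that the dye-swap array of YC pool 2 was read together with YC pool 1.

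For 15 of the 41, all 12 pools lay within 0.5 log2 units of 0, 9 of them Wnt ligands. Above 1 in all pools were Sfrp1 and Fzd9, and below -1 in all pools were Lef1, Wnt10a and Wnt4. An F test over the 6 strains in limma called 926 of the 29496 genes at a Benjamini-Hochberg adjusted p under 0.05, or 3.14%. It called 5 members: Fzd1 (adjusted p = 0.0152), Wnt5b (0.0252), Wnt9b (0.0359), Wnt4 (0.0393) and Fzd4 (adjusted p = 0.05, just under the threshold). At an unadjusted p under 0.05 there were 11 members and 6247 genes. None of the Dkk, Wif1, Sfrp, Axin or Lef1 genes was called in the F test. The count of members was 1 without either NDL25 pool, either YC pool, YE pool 2 or NYPD pool 2. It was 2 without either YD pool or YE pool 1, 4 without NYPD pool 1, 6 without YB pool 1 and 5 without YB pool 2. Such a fit keeps 1 pool in a strain and has less to estimate the spread with.

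**Figure D1:**
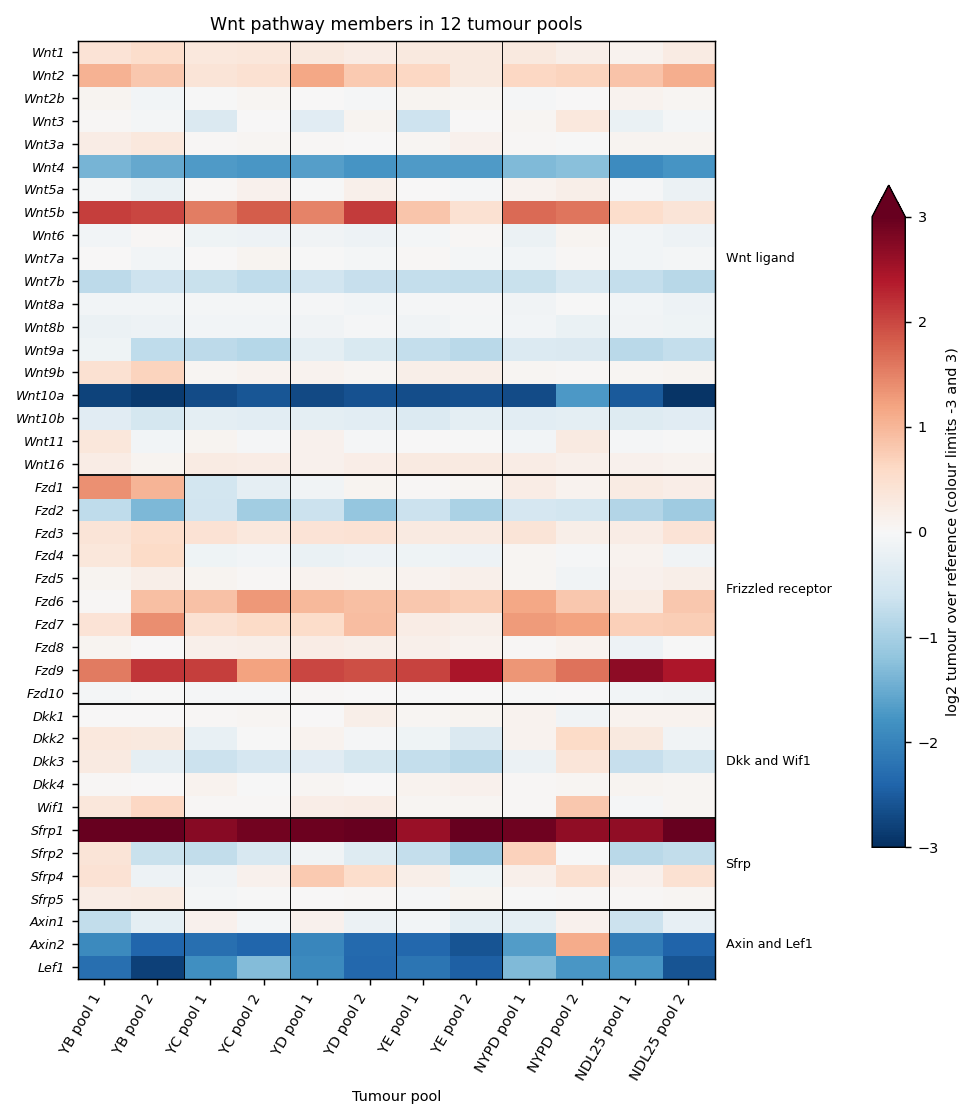
The log2 ratio of tumour over reference of the 41 members (rows, grouped by role) in the 12 pools (columns), from blue (below reference) to red (above). Sfrp1 and Fzd9 are red and Wnt4, Wnt10a and Lef1 blue in every pool, Wnt5b is pale in YE and NDL25, and Axin2 is red in NYPD pool 2 alone.

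Tumours of the YB strain had more RNA of several ligands and receptors than those of the parental strain. In YB tumours against NDL25 tumours, 5 members rose and 0 fell: the ligands Wnt5b, Wnt9b and Wnt4 and the receptors Fzd1 and Fzd4. Over all genes 3.09% rose and 0.783% fell, so 3.87% were called. The median difference of the 41 members was 0.09 log2 units, against -0.01 over all genes. In bulk tumour RNA, more cells of a type and more RNA per cell cannot be told apart.

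Fzd1, a receptor able to signal through beta-catenin, had log2 ratios of 1.37 and 1.01 in YB, -0.55 and -0.27 in YC, -0.10 and 0.09 in YD, 0.04 and 0.07 in YE, 0.22 and 0.10 in NYPD, and 0.24 and 0.19 in NDL25. Both YB pools stood above the other 10, and both YC pools were the lowest. The difference from NDL25 was 0.97 ± 0.14 (SE, limma adjusted p = 0.0123), a 1.96-fold rise in YB. Wnt9b, a ligand known for inducing kidney tubules, read 0.47 and 0.68 in YB, 0.06 and 0.12 in YC, 0.11 and 0.05 in YD, 0.17 and 0.18 in YE, 0.05 and 0.04 in NYPD, and 0.05 and 0.09 in NDL25. It was thus off the reference level in YB and close to it elsewhere. Its difference from NDL25 was 0.50 ± 0.07 (adjusted p = 0.0136).

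Fzd4, which besides Wnt ligands binds Norrin in the vessels of the retina, had 0.35 and 0.56 in YB, -0.13 and -0.09 in YC, -0.21 and -0.15 in YD, -0.13 and -0.16 in YE, 0.06 and -0.03 in NYPD, and 0.11 and -0.11 in NDL25. The YB pools did not overlap any other strain. The Fzd4 difference from NDL25 was 0.45 ± 0.09 (adjusted p = 0.0427). Wnt3a, a ligand that activates beta-catenin signalling, read 0.23 and 0.32 in YB, 0.03 and 0.06 in YC, 0.03 and 0.02 in YD, 0.06 and 0.14 in YE, 0.04 and -0.02 in NYPD, and 0.08 and 0.08 in NDL25. Its YB pools were again the highest, by a small margin. For Wnt3a the difference from NDL25 was 0.20 ± 0.06 and did not pass (adjusted p = 0.111).

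**Figure D2:**
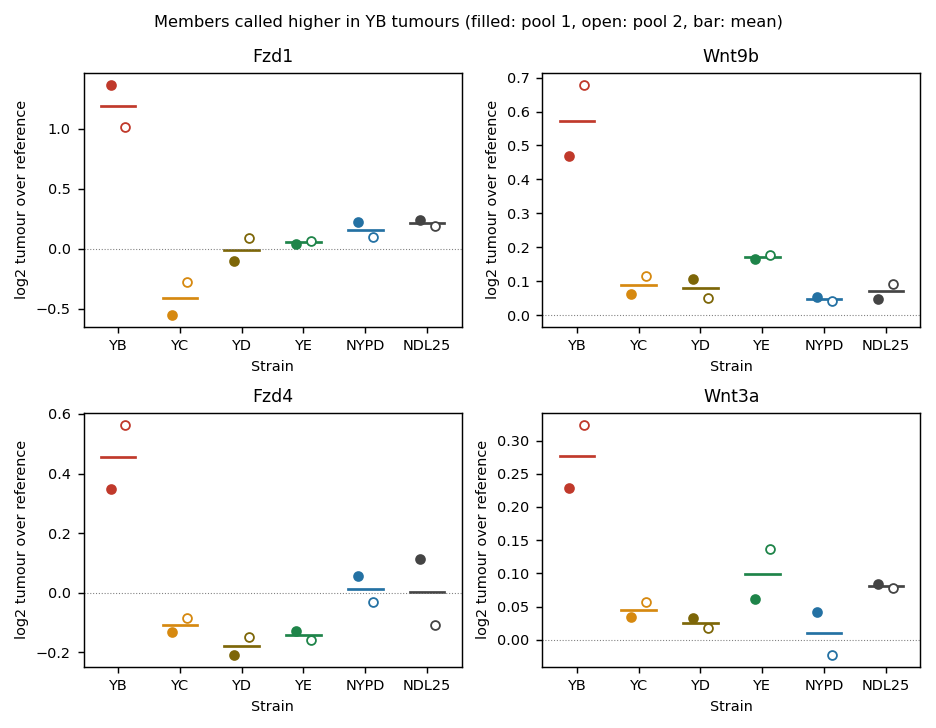
Log2 ratios of tumour over reference of Fzd1, Wnt9b, Fzd4 and Wnt3a for pool 1 (filled) and pool 2 (open) of each strain, with a bar at the mean of both. For each gene the 2 YB pools lie above all 10 other pools, for Fzd1 at 1.37 and 1.01 against 0.24 at most.

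Salivary gland genes moved with the YB strain. Of 9 such markers tested, 7 rose in YB against NDL25, and the list median was 3.53 and 3.93 in the YB pools, against 0.03 to 0.33 in all other pools. Prpmp5, a salivary proline-rich protein gene, read 5.98 and 6.10 in YB and at most 0.45 elsewhere. Among squamous genes Tgm3, an epidermal transglutaminase, read 2.71 and 2.54 in YB, against 0.57 or less in the other pools. The squamous list as a whole moved little. Of its 12 genes 2 rose in YB against NDL25, with a median difference of 0.14. Its median was 0.23 and 0.19 in the YB pools, against 0.01 to 0.56 in the others. Other lists moved in YB against NDL25 too, with median differences of 0.78 for fibroblast, 0.50 for macrophage, 0.42 for adipocyte and 0.39 for basal markers. Those of the luminal, endothelial, lymphocyte and muscle lists were 0.16 or less. The part of all such cells in the YB values of Fzd1, Wnt9b, Fzd4, Wnt3a, Wnt5b and Wnt4 was not tested. Nor was it tested for the other pathway genes given below as higher in YB.

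In YB against NDL25 with feature extraction session as a block, Fzd1, Wnt5b and Wnt9b had limma adjusted p = 0.0199, 0.0199 and 0.0315. Fzd4 and Wnt4 had adjusted p = 0.0803 and 0.0766. All pools of both strains were in the same session, so the block left their differences unchanged and altered only the estimate of the spread. It is therefore no check on an effect of session here. Within the session that holds both strains, or in a fit of both strains alone, 0 members passed, with the differences as before and with few residual degrees of freedom. Without NDL25 pool 1 or pool 2 the count was also 0 and the adjusted p of Fzd1 was 0.0828 and 0.0859, of Wnt5b 0.0621 and 0.0698, and of Wnt9b 0.101 and 0.075. The count was 3 without any one pool of YC, YD or YE, 4 without YB pool 1 or either NYPD pool, and 5 without YB pool 2. With YB pool 1 and NDL25 pool 1, the pools of low Erbb2 signal, both left out it was 2, Fzd4 and Wnt9b, at differences of 0.67 and 0.59.

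Wnt5b, a ligand that mostly signals without beta-catenin, showed the widest range of strain means among the Wnt ligands. Its log2 ratios were 2.08 and 2.01 in YB, 1.53 and 1.82 in YC, 1.49 and 2.10 in YD, 0.82 and 0.46 in YE, 1.69 and 1.61 in NYPD, and 0.53 and 0.39 in NDL25. YE and NDL25 overlapped, and their 4 pools were all below the 8 pools of YB, YC, YD and NYPD. The neighbours in the order of means (YB, YD, YC, NYPD) differed by less than the spread between the YD pools. A second Wnt5b probe, dimmer than the first, had 0.31 and 1.07 in YB, 1.11 and 1.06 in YC, 0.92 and 0.93 in YD, 0.30 and -0.07 in YE, 0.38 and 1.05 in NYPD, and -0.19 and -0.03 in NDL25. On that probe too the NDL25 pools were lowest along with YE pool 2, but YB pool 1 and NYPD pool 1 lay close to YE pool 1.

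Against NDL25, Wnt5b rose by 1.59 ± 0.20 in YB (SE, adjusted p = 0.00888) and by 1.19 ± 0.20 in NYPD (adjusted p = 0.0479). Its differences of 1.22 in YC and 1.33 in YD, each ± 0.20, did not pass (adjusted p = 0.0907 and 0.0866). YE minus NDL25 was 0.18 for the same gene. YC pool 1, read in the same session as NDL25, had 1.53, and in the session that held YD and YE the YD pools had 1.49 and 2.10 and the YE pools 0.82 and 0.46.

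Wnt4 was below the reference in every pool, with -1.39 and -1.54 in YB, -1.70 and -1.75 in YC, -1.64 and -1.76 in YD, -1.69 and -1.70 in YE, -1.33 and -1.24 in NYPD, and -1.88 and -1.78 in NDL25. NYPD was highest and NDL25 lowest, and neither overlapped another strain. The NYPD difference from NDL25 was 0.54 ± 0.07 (limma adjusted p = 0.029), and the YB difference was 0.37 ± 0.07 (adjusted p = 0.041). For NYPD it was 0.74 with Agilent processed signals (adjusted p = 0.0349) and 0.60 with the authors' deposited ratios (adjusted p = 0.0701). On arrays with tumour RNA in Cy5 alone it was 0.42 (adjusted p = 0.168), and in Cy3 alone 0.66 (adjusted p = 0.0246). The dye-swap pair of NDL25 pool 2 differed widely for Wnt4, at -2.05 with tumour RNA in Cy3 and -1.51 with it in Cy5. Wnt4 was dim, with a mean tumour signal of 231 units, on average 3.69 times the negative control median. The part of the higher negative control signal of the NYPD Cy3 arrays in this difference was not tested. The size of the YB difference depended on the processing, at 0.91 with the authors' deposited ratios (limma adjusted p = 0.00896) and 0.62 with Agilent processed signals. It was 0.22 on arrays with tumour RNA in Cy5 alone (adjusted p = 0.501) and 0.24 without the pools of low Erbb2 signal (adjusted p = 0.384). In YE against NYPD, Wnt4 fell by 0.41 on the log2 scale (SE 0.07, adjusted p = 0.0428).

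**Figure D3:**
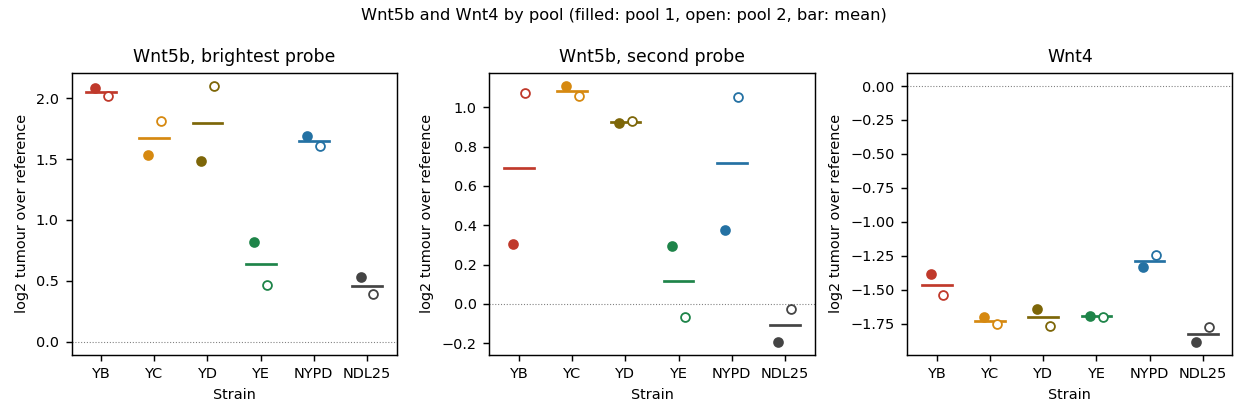
Log2 ratios of tumour over reference of the brightest Wnt5b probe, the second Wnt5b probe and Wnt4 for pool 1 (filled) and pool 2 (open) of each strain, with a bar at the mean. On the brightest Wnt5b probe the 4 pools of YE and NDL25 lie at 0.82 or lower and the other 8 at 1.49 or higher.

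In NYPD tumours against NDL25 tumours Wnt4 and Wnt5b were the only members called, 2 higher and 0 lower, with 0.973% of all genes called in either direction. The median difference was 0.08 over members and -0.01 over all genes. Below an unadjusted p of 0.05 there were 9 members beside 15.6% of all genes. These 9 included Fzd9 (-1.08 ± 0.31), Dkk3 (0.71 ± 0.21) and Sfrp2 (1.11 ± 0.35), with adjusted p of 0.148, 0.165 and 0.188. All NYPD arrays, and no others, were read in one session, and for comparisons with NYPD the strain and the session cannot be told apart. The member count was 0 without either NDL25, YC or YE pool or NYPD pool 2, 1 without either YB or YD pool, and 4 without NYPD pool 1. Without the pools of low Erbb2 signal it was 0.

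Some basal cell markers moved in the same comparison. Of 11 tested, 2 rose in NYPD against NDL25. The list median was 0.12 and 0.38 in NYPD, against -0.09 and -0.03 in NDL25. Such levels were not particular to NYPD, with 0.37 and -0.11 in YB, 0.12 and 0.13 in YC, and 0.37 and 0.04 in YD. The YE pools had -0.04 and -0.07. Trp63, a transcription factor of basal epithelium, read 1.59 and 1.44 in NYPD, against -0.14 and -0.03 in NDL25, and Oxtr, the oxytocin receptor of myoepithelial cells, 1.85 and 1.75 in NYPD, against 0.61 and 0.77 in NDL25. None of the 14 fibroblast markers was called, with a median difference of 0.72. This too was not particular to NYPD, as the median difference in YB against NDL25 was 0.78. The part of such cells in the NYPD values of Wnt4 and Wnt5b was not tested.

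**Figure D4:**
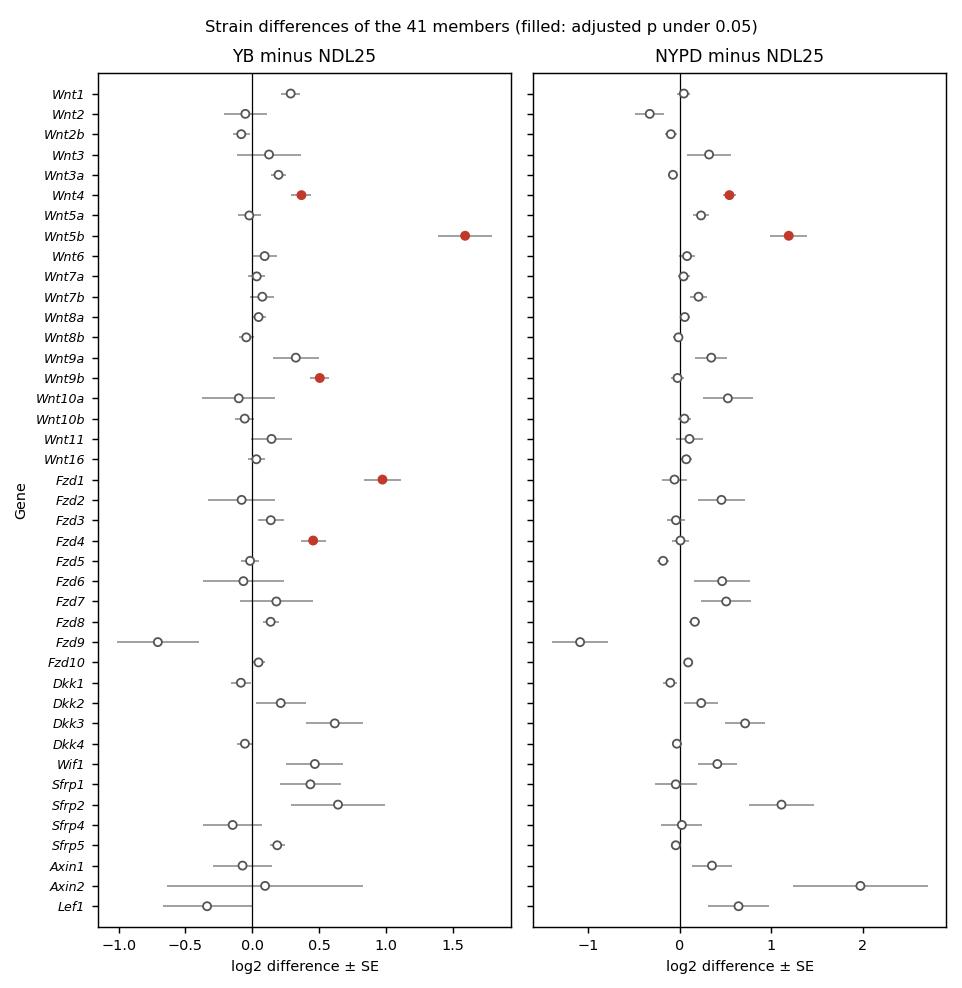
Differences of strain means (log2, with standard errors) of the 41 members for YB minus NDL25 and NYPD minus NDL25, with filled points for adjusted p under 0.05. Wnt5b and Wnt4 are filled in both panels, Fzd1, Wnt9b and Fzd4 for YB alone, and Axin2 has the widest error bars.

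Against NDL25, limma called no member in YC, YD or YE. In these comparisons 0.00678%, 0.00678% and 0% of all genes were called. At an unadjusted p under 0.05 there were 5 members for YC, 3 for YD and 3 for YE, beside 11.3%, 10.4% and 7.52% of all genes. For YC these were Wnt5b, Fzd1 (-0.63 ± 0.14), Fzd8, Wnt2 (-0.55 ± 0.16) and Fzd9. Fzd8, a receptor close to Fzd5 in sequence, had unadjusted p under 0.05 in all of YC, YD and YE, with differences of 0.26, 0.28 and 0.21, each ± 0.06. NDL25 had the lowest Fzd8 values, -0.16 and -0.02, against 0.10 to 0.21 in these 3 strains. A second Fzd8 probe had 0.06 and 0.08 in YC, 0.21 and 0.26 in YD, 0.05 and 0.05 in YE, and 0.18 and 0.02 in NDL25. On that probe the NDL25 pools lay on both sides of those of YC and YE, and the differences from NDL25 of -0.03 in YC, 0.14 in YD and -0.05 in YE share the direction of the first probe for YD only.

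The strains with a restored site were also set against NYPD, which shares its pools among the comparisons. In YB tumours against NYPD tumours 4 members rose and 0 fell: Fzd1 by 1.03 ± 0.14 (adjusted p = 0.0103), Wnt9b by 0.53 ± 0.07 (adjusted p = 0.0115), Wnt3a by 0.27 ± 0.06 (adjusted p = 0.0365) and Fzd4 by 0.44 ± 0.09 (adjusted p = 0.0395). Over all genes 3.97% rose, and 5.04% were called. Sfrp5, a secreted Wnt antagonist, stood next with 0.23 and 0.25 in YB, against -0.01 and 0.03 in NYPD (difference 0.23 ± 0.06, adjusted p = 0.0652). The median difference was -0.02 over members, against 0.0011 over all genes.

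Without NYPD pool 2 no member passed in YB against NYPD (Fzd1 adjusted p = 0.0548, Wnt9b 0.0538), and 2 members passed without any one pool of YC, YD or YE. The count was 3 without either NDL25 pool or YB pool 2, and 4 without YB pool 1 or NYPD pool 1. In the fit of the YB and NYPD pools alone 0 passed.

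In YE tumours against NYPD tumours 1 member, Wnt4, fell and 0 rose, with 1.82% of genes called and 1.01% lower. Wnt5b differed by -1.01 ± 0.20 (adjusted p = 0.056), Dkk3 by -0.85 ± 0.21 (adjusted p = 0.094) and Fzd7 by -1.04 ± 0.27 (adjusted p = 0.106). The count was 0 without either NDL25, YC or YE pool or NYPD pool 2, 1 without either YD pool, 3 without NYPD pool 1 and 2 when either YB pool was left out. In YC and YD against NYPD limma called 0 members, with 0.0170% and 0.0102% of genes called (for YD 0.00339% higher and 0.00678% lower) and 8 and 3 members below an unadjusted p of 0.05, beside 10.2% and 10.8% of all genes. Without NYPD pool 1 the members called were 2 for YC and 1 for YD. Wnt4 had the smallest p in both, at -0.44 ± 0.07 for YC and -0.42 ± 0.07 for YD (adjusted p = 0.112 and 0.108).

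Promoters are shown for Fzd1 and Wnt9b, both highest in YB, for Wnt5b, with the widest range of strain means among the ligands, and for Axin2, high in a single pool. They run from 250 bases before to 50 after the gene start, as in the RefSeq table of the GRCm38.p6 build. Capitals mark the letters CTTTGNN on either strand with only A or T in the places of N, the core that Tcf and Lef factors bind. Fzd1 lies at chr5:4758167-4758466 (minus strand), Wnt9b at chr11:103749772-103750071 (minus), the Wnt5b start with a match at chr6:119449337-119449636 (minus) and Axin2 at chr11:108920099-108920398 (plus).
Fzd1: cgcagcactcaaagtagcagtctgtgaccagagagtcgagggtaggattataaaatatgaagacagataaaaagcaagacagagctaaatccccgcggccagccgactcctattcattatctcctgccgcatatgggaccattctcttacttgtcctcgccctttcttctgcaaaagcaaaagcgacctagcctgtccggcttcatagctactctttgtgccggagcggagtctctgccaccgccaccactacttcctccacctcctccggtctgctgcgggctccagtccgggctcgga
Wnt9b: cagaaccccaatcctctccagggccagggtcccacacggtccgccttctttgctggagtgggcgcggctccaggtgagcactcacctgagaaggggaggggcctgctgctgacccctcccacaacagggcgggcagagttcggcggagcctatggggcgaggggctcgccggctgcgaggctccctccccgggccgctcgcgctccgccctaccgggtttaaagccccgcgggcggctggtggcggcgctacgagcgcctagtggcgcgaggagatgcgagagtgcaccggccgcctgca
Wnt5b: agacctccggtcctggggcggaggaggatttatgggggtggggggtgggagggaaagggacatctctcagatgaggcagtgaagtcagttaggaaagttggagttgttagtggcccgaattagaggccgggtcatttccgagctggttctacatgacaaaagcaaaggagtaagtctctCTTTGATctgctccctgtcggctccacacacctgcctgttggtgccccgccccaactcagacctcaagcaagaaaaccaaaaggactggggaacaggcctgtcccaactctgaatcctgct
Axin2: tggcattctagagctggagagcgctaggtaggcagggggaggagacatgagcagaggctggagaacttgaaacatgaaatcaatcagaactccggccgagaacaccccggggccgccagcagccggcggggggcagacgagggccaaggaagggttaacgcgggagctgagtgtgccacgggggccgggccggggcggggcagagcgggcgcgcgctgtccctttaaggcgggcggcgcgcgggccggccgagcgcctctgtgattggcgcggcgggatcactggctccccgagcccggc

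Of these 4 windows only that of Wnt5b holds a match, which begins 71 bases before the start, and the other 2 Wnt5b starts in the table hold none. The table had promoters for 28 of the 41 members, 34 in all. A match was present in 6 of the 34, or 17.6%, against 16.9% of all 32851 promoters. Besides Wnt5b these were promoters of Dkk1, Fzd7, Lef1, Wnt11 and Wnt3. The windows of Fzd1, Wnt9b, Fzd4, Wnt3a and Wnt4 held none of these letters.

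Among the other Frizzled receptors the widest ranges were those of Fzd1, Fzd9 and Fzd7. Fzd9 read 1.56 and 2.14 in YB, 2.07 and 1.20 in YC, 2.01 and 1.93 in YD, 2.03 and 2.45 in YE, 1.32 and 1.64 in NYPD, and 2.69 and 2.43 in NDL25. It was above the reference everywhere, and NDL25 overlapped YE only. Fzd7, a receptor found in mammary stem and basal cells, had 0.41 and 1.40 in YB, 0.45 and 0.58 in YC, 0.55 and 0.93 in YD, 0.23 and 0.16 in YE, 1.27 and 1.20 in NYPD, and 0.71 and 0.74 in NDL25. Its F test did not pass (adjusted p = 0.276), and a second Fzd7 probe was below the reference in all pools, at -0.93 to -0.37, so the sign of its level is uncertain.

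Fzd6, a planar polarity receptor, was above the reference in all pools (0.03 to 1.30), and Fzd2 below it (-1.35 to -0.50). Fzd3 read 0.17 to 0.52, and Fzd5 and Fzd10 stayed within 0.2 of 0. A second Fzd10 probe read 1.15 in NYPD pool 2 and 0.03 to 0.25 in the other 11.

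Apart from Wnt5b, Wnt4, Wnt9b and Wnt3a, no Wnt ligand was called in any comparison. Wnt10a had the second widest range of strain means among the ligands. Its log2 ratios were -2.79 and -2.88 in YB, -2.68 and -2.56 in YC, -2.71 and -2.61 in YD, -2.65 and -2.64 in YE, -2.69 and -1.72 in NYPD, and -2.53 and -2.93 in NDL25. Only NYPD pool 2 stood off from the others. The ligands Wnt2b, Wnt3a, Wnt5a, Wnt6, Wnt7a, Wnt8a, Wnt8b, Wnt11 and Wnt16 stayed within 0.5 of 0 in all pools. Wnt2, a ligand of stromal fibroblasts, was above the reference in all pools, at 0.29 to 1.17, and Wnt7b was below it, at -0.83 to -0.47. Wnt1 read 0.41 and 0.53 in YB and 0.12 to 0.35 in the other pools, with a YB difference from NDL25 of 0.29 ± 0.07 (adjusted p = 0.0772). The YB pools of Wnt1 were the highest of the 12.

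Several Wnt genes lie side by side in the mouse genome, and 4 such pairs of neighbours were among the members. Wnt9b stood at 0.04 to 0.68 and was raised in YB, while its neighbour Wnt3 ranged from -0.61 to 0.32, with 0.03 and -0.05 in YB. Wnt3a stood at -0.02 to 0.32, against -0.86 to -0.14 for its neighbour Wnt9a. Wnt6 read -0.16 to 0.09 beside Wnt10a at -2.93 to -1.72, and Wnt1 0.12 to 0.53 beside Wnt10b at -0.52 to -0.29. A second probe of Wnt6 read -1.13 to -0.19, so its level depends on the probe, and a second Wnt9a probe stayed near the reference at -0.04 to 0.11.

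No antagonist was called in any comparison. Dkk3, a Dickkopf relative whose action on Wnt signalling is disputed, had the widest range of its group, with 0.26 and -0.28 in YB, -0.64 and -0.49 in YC, -0.34 and -0.52 in YD, -0.72 and -0.80 in YE, -0.19 and 0.37 in NYPD, and -0.70 and -0.55 in NDL25. The pools of YB and NYPD were the 4 highest. Dkk2, which like Dkk1 binds the Lrp co-receptors, read 0.32 and 0.29 in YB, -0.22 and -0.02 in YC, 0.11 and -0.03 in YD, -0.14 and -0.44 in YE, 0.10 and 0.56 in NYPD, and 0.28 and -0.10 in NDL25. Both YB pools lay above those of YC, YD, YE and NDL25, though barely above NDL25 pool 1, and they overlapped NYPD. The YE pools overlapped those of YC only. Wif1 read 0.34 and 0.61 in YB and 0.81 in NYPD pool 2, against -0.04 to 0.22 elsewhere, and Dkk1 and Dkk4 stayed within 0.2 of 0.

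Sfrp1, an antagonist that binds Wnt ligands through a domain like that of the Frizzled receptors, was far above the reference in every pool, between 2.59 and 3.38, with a raw mean tumour signal of 5254 units. Its strain means spanned only 0.48 log2 units (F test adjusted p = 0.586). Sfrp2, known from fibroblasts, read 0.39 and -0.66 in YB, -0.75 and -0.47 in YC, -0.11 and -0.38 in YD, -0.71 and -1.10 in YE, 0.69 and -0.02 in NYPD, and -0.81 and -0.74 in NDL25. The 2 pools of YB differed by more than 1 log2 unit. Fibroblast markers, 14 genes, had list medians of -0.31 and -1.36 in YB, -1.95 and -1.75 in YC, -1.19 and -1.55 in YD, -1.72 and -2.27 in YE, -0.46 and -0.85 in NYPD, and -1.34 and -1.70 in NDL25. Their part in the Sfrp2 values was not tested.

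Sfrp4 had 0.42 and -0.15 in YB, -0.10 and 0.14 in YC, 0.78 and 0.54 in YD, 0.18 and -0.12 in YE, 0.15 and 0.47 in NYPD, and 0.12 and 0.45 in NDL25. Its YD pools were the highest, and its F test had an adjusted p of 0.386.

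Axin2, a negative regulator that is itself induced by beta-catenin signalling, set a single pool apart. It read -1.92 and -2.38 in YB, -2.26 and -2.39 in YC, -1.95 and -2.33 in YD, -2.37 and -2.59 in YE, -1.67 and 1.12 in NYPD, and -2.09 and -2.40 in NDL25. NYPD pool 2 was above the reference and the other 11 pools well below it. Both arrays of that pool showed it, at 1.29 and 0.95, with raw tumour signals of 1255 and 1336 units against 113 to 282 on the other 22 arrays. As the other NYPD pool did not share it, no comparison passed, NYPD minus NDL25 being 1.97 ± 0.73 (adjusted p = 0.247) and the F test adjusted p = 0.354.

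The same pool was the highest of the 12 for some other members, mostly by small margins. The margin over the next pool was 0.81 for Wnt10a, 0.24 for Dkk2, 0.23 for Wnt3, 0.20 for Wif1 and 0.11 for Wnt7b. It was smaller still for Wnt4, Wnt5a, Wnt6, Wnt8a and Dkk3. Dkk2, Wnt3, Wnt5a and Wnt8a are among the dim members. The share of all genes highest in this pool was not counted, so no shift of the family is read from this. In NYPD pool 2 the squamous markers had a list median of 0.56, against 0.01 in NYPD pool 1 and 0.08 to 0.23 in the other strains, and Sprr1a, a cornified envelope gene, read 1.96 there, against -1.40 in NYPD pool 1. The part of such cells in the Axin2 value was not tested. Lef1, a nuclear partner of beta-catenin, read -2.25 and -2.79 in YB, -1.83 and -1.29 in YC, -1.91 and -2.34 in YD, -2.19 and -2.46 in YE, -1.33 and -1.75 in NYPD, and -1.78 and -2.59 in NDL25. NYPD pool 2 did not stand apart for it. A second Lef1 probe read -0.30 to -0.14. Axin1, the scaffold of the destruction complex, ranged from -0.75 to 0.12.

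**Figure D5:**
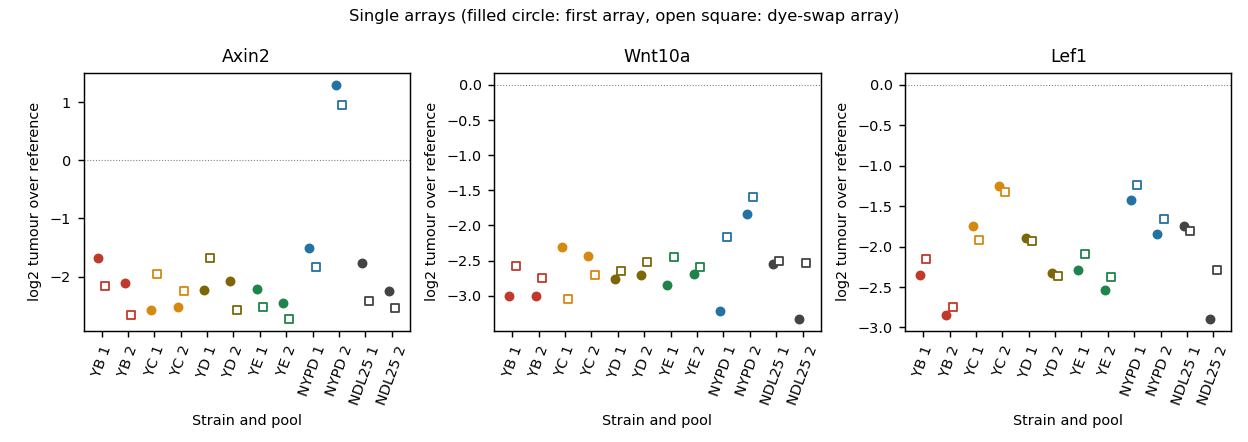
Log2 ratios of tumour over reference of Axin2, Wnt10a and Lef1 on the single arrays of the 12 pools, with the first array as a filled circle and the dye-swap array as an open square. Both arrays of NYPD pool 2 are high for Axin2 (1.29 and 0.95) and, less so, for Wnt10a, but not for Lef1.

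Other genes of the pathway were read from 4 lists, with 58 genes tested: 10 co-receptors and secretion factors, 5 R-spondins and their Lgr receptors, 24 intracellular components and 19 genes known as targets. The F test called 5 of the 58, against 3.14% of all genes. In the comparisons with NDL25 the lists gave 1 higher and 2 lower for NYPD, 4 higher and 1 lower for YB, and none for YC, YD or YE. The share of all genes called in these was 0.973% for NYPD and 3.87% for YB. Against NYPD there were 2 higher and 1 lower for YB (5.04% of all genes), 1 higher and 2 lower for YE (1.82%), and none for YC or YD.

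Lgr6, an R-spondin receptor and stem cell marker of skin, read 1.17 and 0.49 in YB, 0.49 and 0.54 in YC, 1.09 and 1.77 in YD, -0.49 and -0.70 in YE, 0.21 and 0.36 in NYPD, and -0.80 and -0.36 in NDL25. The pools of YE and NDL25 were below all others, as for Wnt5b. Its YB difference from NDL25 was 1.41 ± 0.28 (adjusted p = 0.0373). Rspo1 and Lgr4 were not called.

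Of the intracellular genes, Frat2, an inhibitor of Gsk3, rose against NDL25 by 0.55 ± 0.07 in YB (adjusted p = 0.00881) and by 0.45 ± 0.07 in NYPD (adjusted p = 0.0388). Dvl3, a Dishevelled protein that relays the Frizzled signal, read 0.50 and 0.76 in YB and 0.15 or less elsewhere, and rose by 0.59 ± 0.08 in YB against NDL25 (adjusted p = 0.0121). Dvl3 thus showed its highest values in the same pools as Fzd1, Wnt9b and the salivary gland list median. Tle4, a Groucho corepressor, was lowest in NYPD at -0.08 and -0.06, and differed from NDL25 there by -0.79 ± 0.10 (adjusted p = 0.0272). The related Tle1, chosen with its values known, fell by 0.76 in NYPD and by 0.68 in YB against NDL25 (adjusted p = 0.0311 and 0.0187). Frat1, also chosen with its values known, rose by 0.41 in YB against NDL25 (adjusted p = 0.044).

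Among co-receptors, Ror1, a receptor for Wnt5 ligands, fell by 0.67 in YE against NYPD (SE 0.11, adjusted p = 0.033), and Lrp6 and Wls were not called. No target gene passed the F test. Jag1 and Tnfrsf19 were not called in any comparison, and Myc fell against NYPD by 1.06 in YE (adjusted p = 0.0412) and by 0.84 in YB (adjusted p = 0.048). Myc read -1.48 and -1.34 in YB, -1.44 and -1.83 in YE, and -0.37 and -0.78 in NYPD.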

How the data were processed

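Total RNA of 2 tumour pools per strain was amplified in 1 round from 500 ng and labelled with Cy3 and Cy5, per the labels' protocols. The deposited scanner files hold mean spot intensity and local background intensity of both channels, per the file headers, which name Agilent Feature Extraction. They also hold a log10 ratio of red over green processed signal, made by that software per the file headers, which was not used here, and the processed intensities, which served as an alternative. The authors also deposited 1 log2 ratio per pool and probe. Per the submitters' processing notes it was made with RMA, limma and R 2.3.0, and its log base is an assumption. These values served as an alternative: they correlated at r = 0.983 to 0.988 with the loess-normalized ratios computed from the scanner intensities (slopes 1.02 to 1.37), and their medians ran from -0.00222 to 0.0147.

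Intensities were corrected with normexp (offset 50) in limma 3.58.1 (R 4.3.3), and each array was normalized by loess. The offset draws ratios of dim probes towards 0. The dye of the tumour RNA was set from 36 probes of luminal and milk genes, which read 1.18 to 2.51 as median log2 red over green with tumour RNA in Cy5 and -1.65 to -0.90 with it in Cy3, and Afp was on the opposite side on every array, at -3.28 to -2.42 as log2 tumour over reference. Ratios of a dye-swap pair (r = -0.962 to -0.891 before turning) were turned and averaged, so a pool counts as 1 replicate. Probes of a gene were represented by the brightest over all arrays. Genes well above background on fewer than 4 arrays (242) or with a missing pool (4) were left out.

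One limma model with a mean per strain was fitted to all 29496 genes (6 residual degrees of freedom), followed by an F test and 9 contrasts, 5 against NDL25 and 4 against NYPD, each adjusted by Benjamini-Hochberg and called below 0.05. Printed SE values are moderated by limma, with a median of 0.109 over genes. On simulated data for YB against NDL25, with 28979 genes, the fit recovered 70 of 100 genes moved by 1 log2 unit and 95 of 100 moved by 2, with 10 false calls.

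Gene names alone define the members, but this gene family and the lists were chosen with earlier results of these data known. Values of all pools are given for members called in any test and for the 2 members of each role with the widest range of strain means; other members are given by range, and up to 3 genes per list by smallest F test p. Pool numbers were not treated as pairing strains, since the labels name no shared source. Of 15 strain pairs, 7 had deviations correlated at over 0.1 (range -0.171 to 0.716, YB with NDL25 0.392). The highest were YC with YD (0.716), YD with YE (0.627) and YC with YE (0.476). A shared source of pools with the same number was not tested. Promoters came from the RefSeq table of GRCm38.p6. The files name no genome build, no probe sequence was used, and having 2 pools per strain limits the precision.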

Additional observations from a re-analysis of the deposited data

How the results depend on the processing

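The counts of members called depended on the processing. Of 284 recomputed differences of single called members, 159 stayed past the threshold, 125 did not, and 0 reversed. Many settings left the difference itself unchanged, such as a block, the 2 strains alone or leaving out a pool of a strain outside the comparison. In those a reversal was not possible, so the 0 says little about the stability of direction. For the F test (5 members) the count was 3 with median centring, 3 with the authors' deposited ratios, 3 with the replicate block, 3 with tumour RNA in Cy3 arrays only, 1 with session as a block, where 4 contrasts could be fitted, and 2 without the pools of low Erbb2 signal, a choice made after seeing the data. For NYPD vs NDL25 (2) it was 1 with median centring and with the replicate block, and 0 with the deposited ratios, Cy5 arrays only, the 2 strains only, or without those pools. For YB vs NDL25 (5) it was 3 with the deposited ratios, the session block and the replicate block, 2 without those pools, and 0 with the 2 strains only or within session 2, a setting also added after seeing the data. For YB vs NYPD (4) it was 2 with median centring and with Cy3 arrays only, and 0 with the 2 strains only. For YE vs NYPD (1) it was 0 with the deposited ratios, Cy5 arrays only and the 2 strains only, and 2 with Cy3 arrays only or without the low Erbb2 pools. A fit of 2 strains holds fewer samples; for the other settings the cause was not tested. Leaving out 1 pool at a time gave 1 to 6 for the F test, 0 to 4 for NYPD vs NDL25, 0 to 5 for YB vs NDL25, 0 to 4 for YB vs NYPD, 0 to 2 for YC vs NYPD, 0 to 1 for YD vs NYPD and 0 to 3 for YE vs NYPD. For YC, YD and YE vs NDL25 the count was 0 under all alternatives run. Session as a block could not be fitted for comparisons with NYPD. Wnt5b could not be fitted with the deposited ratios, of which some were missing. With the replicate block, YB vs NDL25 had adjusted p = 0.0611 for Fzd4 and 0.056 for Wnt4; the labels give no pairing, so a call lost under it is not read as a weaker effect. With 2 pools per strain, differences of Axin2, Sfrp2 and Fzd7 between strains were not detectable over the spread between pools.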

Other observations

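Genes that stood out in NYPD pool 2 along with Axin2 were listed after the Axin2 value was seen. Of 13882 genes ranked by the NYPD pool 2 value minus the highest of the other 11 pools, Axin2 was number 12, with a gap of 2.79 log2 units. Above it were Prr9 (gap 5.32, 5.67 in NYPD pool 2 and -0.31 in NYPD pool 1) and the hair follicle keratin genes Krt33a (3.89), Krt27 (3.47) and Krt25 (3.38). So were the cornified envelope gene Sprr1a (3.36) and the hair keratin-associated genes Krtap3-2 (3.13) and Krtap3-3 (2.90). Gpnmb, Cstdc6, S100a7a and Sprr2h filled the other places above it, and the files list some of these under older names. The members Axin1, Fzd5, Fzd9, Lef1, Wnt6 and Wnt9a were not ranked, as their probes matched no RefSeq gene. Among the members ranked, Wnt10a followed Axin2 at number 92, with a gap of 0.81. These values describe 1 pool and carry no test.

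The genes whose log2 ratios followed Wnt5b most closely over the 12 pools were also looked for after its values were seen, among 751 genes with an SD of 0.5 or more. They were Mfge8, a milk fat globule protein (r = 0.942), Fads3, of the fatty acid desaturase family (0.940), Slc43a3 (0.928), Cd14, a co-receptor for bacterial lipopolysaccharide (0.926), Slc6a15 (0.921), Serpinb5, also called maspin (0.920), Cp, the copper carrier ceruloplasmin (0.916), Lamb3 (0.915), C4b (0.911) and Clu (0.910). Mfge8 read 2.43 and 2.36 in YB, 2.3 and 2.35 in YC, 2.21 and 2.37 in YD, 1.45 and 0.16 in YE, 2.42 and 2.39 in NYPD, and 0.46 and 0.48 in NDL25. The points share arrays, pools and reference, so the correlations are a description only.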
